A study of Homo sapiens with 45 samples.

Results

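The repressive marks H3K9me2 and H3K9me3, di- and trimethylation of the same lysine of histone H3, were set against each other in control HCT116 cells, an established human colon cancer line of epithelial origin. The comparison uses both control domain lists of the series, 601 H3K9me2 domains and 895 H3K9me3 domains, which together are 1496 of the 8560 domains in its 7 lists. Every control domain of both marks was taken, and each base was put into 1 of 4 classes: covered by both marks, by H3K9me2 alone, by H3K9me3 alone or by neither. Behind these lists stand 6 of the series' 45 samples, 3 ChIP-seq libraries for each mark. All cells received 25 nM siRNA, collected 72 h later: a non-targeting siRNA in the controls, or one against HNRNPK, which encodes an RNA-binding protein. Other readouts were control and HNRNPK siRNA lists for lamin B1 (3 libraries each) and H3K27me3 (2 each), an HNRNPK siRNA list for H3K9me3 (3 libraries), and RNA-seq of 4 control and 4 HNRNPK siRNA libraries. Another 2 RNA libraries, named Scramble and labelled as non-targeting control, differ in how RNA was purified and served only as an alternative control. An H3K9me2 list after HNRNPK siRNA was not analysed here. There is 1 list per mark and condition, whether libraries were pooled to make it is not given in the sources used here, and so domain values below carry no replicate error and no test.

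Both marks belong to silent chromatin. H3K9me2 is laid down chiefly by EHMT1 and EHMT2 and forms broad stretches, many of them at the nuclear lamina. H3K9me3 is laid down by SUV39H1, SUV39H2 and SETDB1, is bound by the HP1 proteins CBX1, CBX3 and CBX5, and marks repeats and clusters of KRAB zinc finger genes. H3K27me3 is the mark of the Polycomb system, and lamin B1 is a protein of the lamina whose domains are read as DNA near the nuclear edge.

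The siRNA target followed the labels. HNRNPK stood at 934, 967, 822 and 814 CPM (the usual depth-scaled unit of counts, here TMM-normalised) in the 4 control libraries and at 250, 223, 157 and 164 CPM after its siRNA (log2 difference -2.17 ± 0.06 SE, edgeR adjusted p = 7.29e-15). The groups did not overlap. Epithelial markers were present in the controls, with EPCAM at 245 to 250 CPM and CDH1 at 94.9 to 106 CPM, and of the intestinal markers CDX2 stood at 10.4 to 13.4 CPM and VIL1 at 0.333 CPM or less. Of the markers of other cells, CD3E, COL1A2 and DCN had no count in any control library and PTPRC reached 0.119 CPM in 1, but the collagen gene COL1A1 stood at 43.5 to 72.3 CPM. RNA depth ran from 14810376 to 23633851 counts in the controls and from 12107280 to 15255556 after HNRNPK siRNA, with 2 libraries of each group from each of 2 kits (TruSeq and Ligation). At this depth a count of 0 in a control library allows a level of up to 0.125 to 0.200 CPM (3 counts, counting error only). Nothing in the labels says that libraries came from separate cultures, so the p-values measure only the spread between these samples.

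In control cells the marks lay mostly on the same DNA. H3K9me2 domains covered 699.0 Mb and H3K9me3 domains 657.2 Mb, 22.6% and 21.3% of the 3087 Mb spanned. They shared 547.8 Mb, which is 78.4% of the H3K9me2 length and 83.4% of the H3K9me3 length, and the shared length was 0.678 of their union. H3K9me2 alone held 151.2 Mb and H3K9me3 alone 109.3 Mb. The shared DNA came in large blocks, 376 runs with a median of 977.5 kb, and runs of 1 Mb or more held 84.3% of it. What was not shared came in small pieces, 745 runs of H3K9me2 alone (median 125 kb) and 723 runs of H3K9me3 alone (median 90 kb).

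Unshared DNA of each mark lay in different places. Of the H3K9me2-alone length, 509 runs (56.8 Mb, median 75 kb) touched a shared block and are called flanks below. They include any gaps between shared blocks, which were not counted apart. Another 236 runs (94.4 Mb, median 325 kb) stood apart from H3K9me3. Of the H3K9me3-alone length, 180 runs (21.3 Mb) touched a shared block and 543 runs (88.1 Mb, median 95 kb) stood apart, which is 80.5% of that class. For H3K9me2 alone the share standing apart was 62.4%, so most of both classes stood apart and the flanks of shared blocks took a larger share of H3K9me2-alone DNA.

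**Figure D1:**
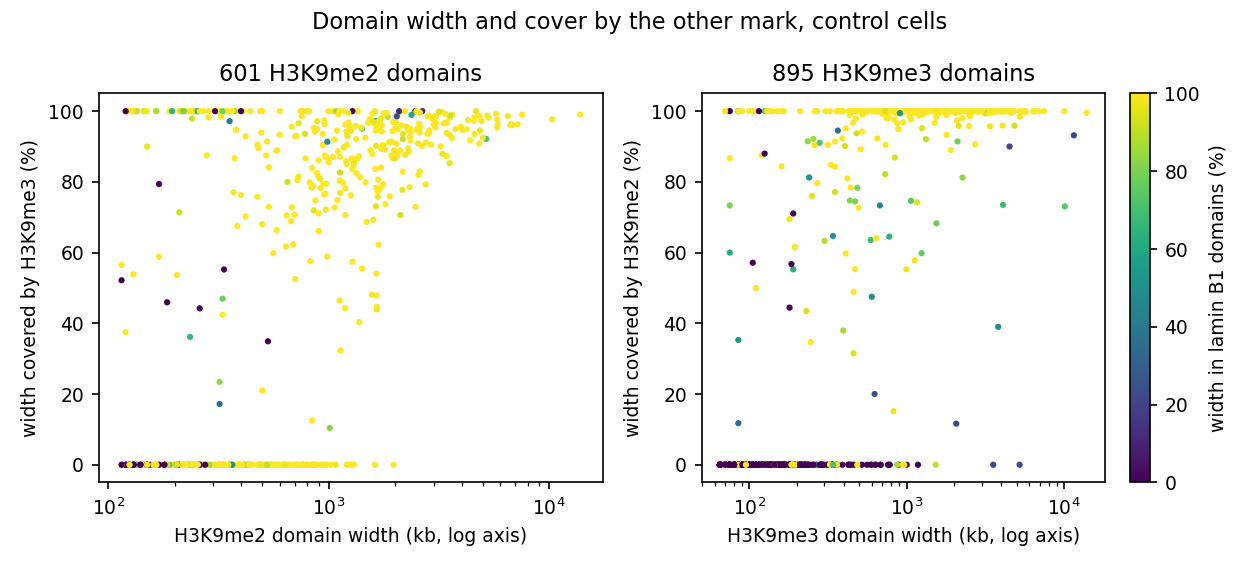
Width of each control domain (x axis, kb, log scale) against the share of its width covered by the other mark (y axis, %), for 601 H3K9me2 domains (left) and 895 H3K9me3 domains (right). Each point is 1 domain and its colour is the share of its width in control lamin B1 domains. Short H3K9me3 domains sit at 0% cover with little lamin B1, while uncovered H3K9me2 domains are mostly in lamin B1.

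Width separated the domains with a partner from those without, as the plot of width against cover shows. Among 290 H3K9me3 domains under 100 kb, 279 (96.2%) met no H3K9me2 domain, against 5 of 190 (2.63%) at 1 Mb and over. Among H3K9me2 domains, 88 of 127 (69.3%) between 100 and 250 kb met no H3K9me3, against 8 of 221 (3.62%) at 1 Mb and over. Over all widths, 236 H3K9me2 domains (39.3%) and 543 H3K9me3 domains (60.7%) had no overlap with the other mark. The median width of an H3K9me3 domain was 95 kb without overlap and 1067.5 kb with it. For H3K9me2 these medians were 325 and 1215 kb. A wider domain has more chance to meet another, and this was not corrected for.

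Where the marks met, H3K9me3 usually lay inside H3K9me2. The overlapping domains formed 376 pairs, of which 315 were 1 domain of each mark and no other. At the 630 edges of these 315 pairs, H3K9me2 reached further out at 475 (75.4%), H3K9me3 at 130, and 25 edges were at the same 5 kb step. In 217 pairs both H3K9me3 edges were inside the H3K9me2 domain. The median offset was 45 kb outward for H3K9me2 (quartiles 5 and 115 kb), 75 kb where H3K9me2 was the wider and 30 kb where H3K9me3 was. Nesting counted over whole lists, which include the domains without overlap, was closer to even. At least 90% covered by the other mark were 219 H3K9me2 domains (36.4%) and 292 H3K9me3 domains (32.6%), and 69 and 227 were covered completely. Among domains that met the other mark, these were 219 of 365 H3K9me2 domains and 292 of 352 H3K9me3 domains at 90%. Over the 1202 H3K9me2 edges, 188 (15.6%) had an H3K9me3 edge within 25 kb, and the median distance to the nearest was 170 kb.

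**Figure D2:**
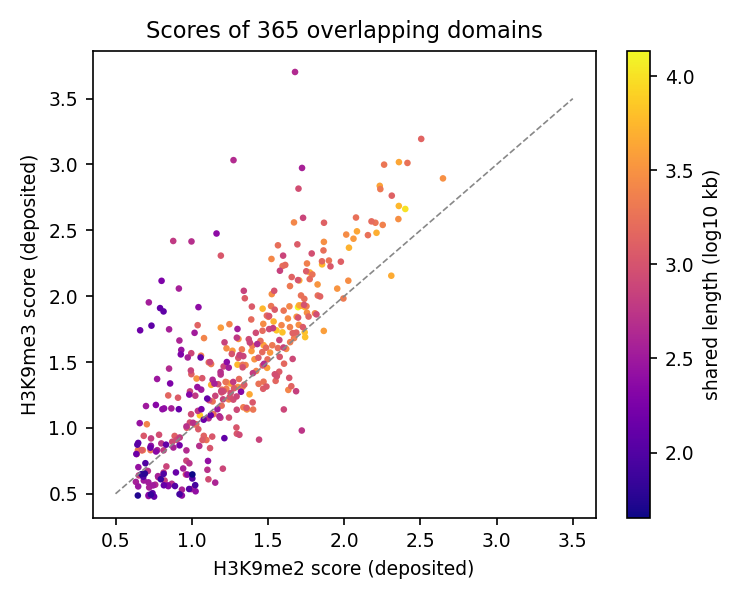
Deposited H3K9me2 score (x axis) against deposited H3K9me3 score (y axis) for the 365 H3K9me2 domains that overlap H3K9me3, each set beside its longest partner. The unit of both scores is not known, colour is the log10 of the shared length in kb, and the dashed line marks equal numbers. Scores rise together, most tightly among long overlaps.

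The deposited scores of the marks rose together, although their unit is not given and the numbers of one mark cannot be read against the other. Over 365 overlapping domains Spearman's rho was 0.779 and Pearson's r 0.793, as a description across domains with no test. Both scores also followed width (rho 0.711 for H3K9me2 over 601 domains and 0.687 for H3K9me3 over 895), and rho given the overlap length was 0.673. Split by overlap length into 3 groups, rho was 0.442 over 124 short, 0.765 over 119 middle and 0.880 over 122 long overlaps. Weighted by length, the H3K9me2 score averaged 1.53 on shared DNA and 1.07 on DNA with H3K9me2 alone. The H3K9me3 score averaged 1.72 on shared DNA and 0.889 on DNA with H3K9me3 alone. Each list thus had higher-scoring domains where the other mark was present. A domain carries 1 score for its shared and unshared length alike, and the part of domain width in this difference was not tested.

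Among the 3 highest scores of each mark, 2 of the H3K9me3 domains were zinc finger clusters and the third lay in a block that was also among the highest for H3K9me2. For H3K9me2 the first was chr17:51355001-54890000 (GRCh38; score 2.65), which holds CA10 and KIF2B, and H3K9me3 covered 85.3% of it. The next were neighbours, chr12:127200001-128775000 (score 2.51), which holds TMEM132C, and chr12:128825001-130665000 (score 2.42), which holds GLT1D1, TMEM132D, FZD10, PIWIL1 and RIMBP2. For H3K9me3 the first was chr12:132820001-133275309 (score 3.70), a cluster of ZNF605, ZNF26, ZNF84, ZNF140, ZNF891, ZNF10 and ZNF268 beside CHFR, and H3K9me2 covered 96.7% of it. The second, chr1:246945001-247285000 (score 3.27), holds ZNF695, ZNF670, ZNF669 and ZNF124 and had no H3K9me2 domain on it. The third, chr12:127375001-128760000 (score 3.19), holds TMEM132C and was wholly covered by H3K9me2. The 4 genes on chromosome 1 were transcribed, ZNF670 at 14.6, 12.5, 11.9 and 10.6 CPM and ZNF124 at 15.7, 13.7, 12.3 and 13.8 CPM in the 4 control libraries. In the chromosome 12 cluster, ZNF84 stood at 19.1, 18.0, 19.9 and 23.0 CPM, whereas CHFR, a mitotic checkpoint ubiquitin ligase, ZNF605, ZNF891 and ZNF10 had no count in any control library.

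**Figure D3:**
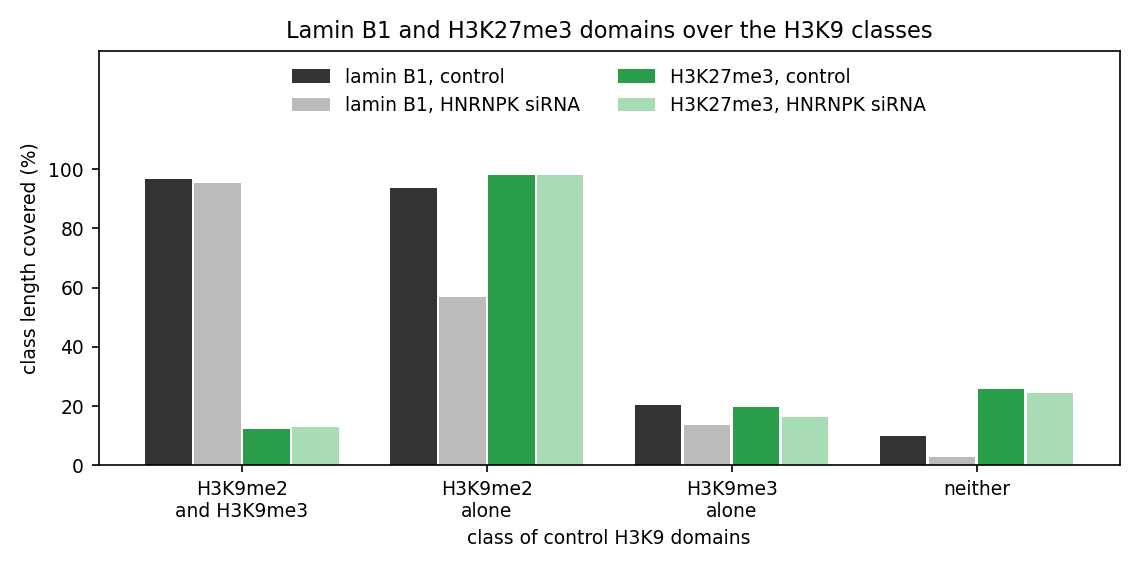
Share of the length of each class (y axis, %) covered by lamin B1 and H3K27me3 domains in control cells and after HNRNPK siRNA. Each bar is 1 list, without replicates. Nearly all H3K9me2-alone length is in H3K27me3, and its lamin B1 cover falls from 93.6% to 57.0% between the lists.

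H3K27me3 and lamin B1 split the classes along different lines, as the bars of covered length show. Control H3K27me3 domains covered 97.9% of the H3K9me2-alone length, against 12.4% of the shared length, 19.7% of the H3K9me3-alone length and 25.6% of the DNA with neither mark. DNA with H3K9me2 and without H3K9me3 was thus almost wholly under the Polycomb mark, both in the flanks of shared blocks (96.2%) and in the runs standing apart (99.0%). Control lamin B1 domains covered 96.9% of shared length and 93.6% of H3K9me2-alone length, but 20.2% of H3K9me3-alone length and 10.0% of the rest. With only the upper part of the scores of each list, the cover of H3K9me3-alone DNA was 39.3%, and H3K27me3 covered 11.5% of it. The H3K9me3 islands standing apart were at 15.4%, and those touching a shared block at 40.1%. Among H3K9me2 domains without H3K9me3, lamin B1 covered 72.8% of the length between 100 and 250 kb, 96.7% from 250 kb to 1 Mb and 99.5% at 1 Mb and over.

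After HNRNPK siRNA the lamin B1 list changed least on shared DNA. It kept 97.8% of its shared control length, 60.4% of its H3K9me2-alone length and 52.5% of its H3K9me3-alone length, against 17.6% on DNA with neither mark. Within the H3K9me2-alone class it kept 76.1% in the flanks and 50.8% in the runs standing apart. The whole lamin B1 list went from 922.9 to 684.5 Mb, and its lowest score from 0.267 to 0.477. Loss of lamin B1 and a different limit of the second list cannot be told apart here. The knockdown H3K27me3 list still covered 98.2% of H3K9me2-alone DNA, and the knockdown H3K9me3 list covered 10.9% of it, 14.6% in the flanks and 8.64% in the runs apart. That list covered 99.4% of shared and 96.9% of H3K9me3-alone length. It holds 1996 domains over 794.4 Mb, more than the control list, and how the lists were scaled to each other is not given in the sources used here.

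**Figure D4:**
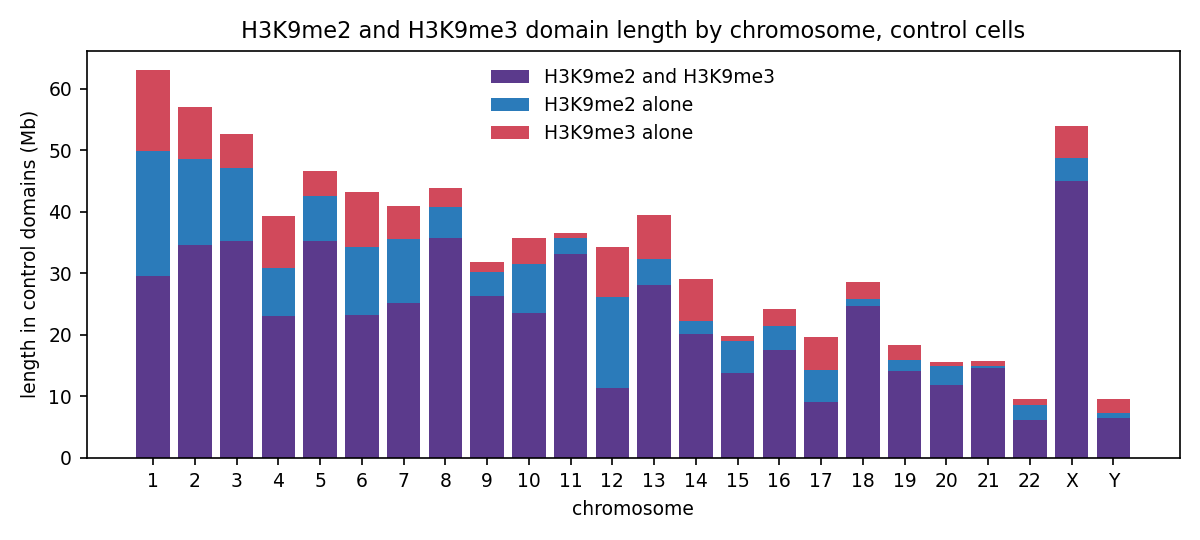
Length of DNA (y axis, Mb) in each class of control domains, stacked by chromosome (x axis). Chromosome 12 has more H3K9me2-alone than shared length, whereas chromosomes 11 and 21 are almost all shared.

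The balance differed between chromosomes, as the stacked lengths show. H3K9me3 covered 97.1% of the H3K9me2 length of chromosome 21, 95.8% of that of chromosome 18 and 92.4% of that of chromosome 11. The lowest shares were 43.4% on chromosome 12 and 59.3% on chromosome 1. On chromosome 12, 14.8 Mb carried H3K9me2 alone and 11.4 Mb both marks, and the shared part was 0.331 of the union, against 0.927 on chromosome 21. H3K9me2 alone was longer than H3K9me3 alone on 15 of 24 chromosomes. On chromosome 14 the order was turned, with 2.08 Mb of H3K9me2 alone and 6.75 Mb of H3K9me3 alone, of which 1 run made up 3550 kb.

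The longest shared runs held few protein-coding genes. The first, chr5:17590001-31245000, is 13655 kb long with 14 protein-coding genes, among them 7 TAF11L copies, H3Y1, the cadherins CDH18, CDH12 and CDH10 and the meiotic recombination factor PRDM9. The second, chr4:57265001-67320000, holds ADGRL3, TECRL and EPHA5, and the third, chr21:17960001-25420000, holds CHODL, TMPRSS15 and NCAM2. Lamin B1 covered 100% of each in control cells, and H3K27me3 covered 0.11%, 1.69% and 0.067%. Leaving aside the TAF11L copies, none of these named genes but CHODL had a count in any control library, and CHODL stayed at 0.274 CPM or less.

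The longest runs with H3K9me2 alone lay under H3K27me3. They were chr6:122865001-124835000 (1970 kb), with CLVS2, TRDN and NKAIN2, chr1:176275001-177895000, with PAPPA2, ASTN1 and BRINP2, and chr12:102270001-103570000, with the growth factor gene IGF1 and C12orf42 among others. H3K27me3 covered 100%, 100% and 96.2% of them, and lamin B1 100% of each. IGF1 stood at 0.237, 0.251, 0.133 and 0.219 CPM in the controls. ASTN1, an adhesion protein of migrating neurons, stood at 0.830, 1.38, 1.07 and 0.493 CPM.

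The longest runs with H3K9me3 alone were of another kind. The first, chr13:67335001-72560000, is 5225 kb long and holds KLHL1 and DACH1, and the second, chr14:41205001-44755000, holds LRFN5 and FSCB. Neither had any H3K27me3 domain, and lamin B1 covered 23.2% and 22.5%. KLHL1 reached 0.109 CPM in 1 control library and none in the other 3, and LRFN5 and FSCB had no count. The third, chr1:143785001-145590000, lies in a block of recent duplications with NBPF15, NBPF20, SRGAP2B and FAM72C. H3K27me3 covered 100% of it in the control list and 10.5% in the HNRNPK siRNA list. NBPF15 stood at 34.3, 35.7, 38.7 and 40.3 CPM there, but these genes have near-identical copies, so both the domains and the counts are uncertain.

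Sequences just upstream of gene starts are given as examples from each class, and single windows do not show how the classes differ. The pairs below are, for each class, the protein-coding gene with the highest control level and a RefSeq start inside the class, and then the first gene under 1 CPM met in its longest runs with a single listed start. The second gene of each pair (H3Y1, CLVS2 and KLHL1) was chosen after values were seen. Each sequence is the 250 bases before the first listed RefSeq start (GRCh38.p14), 5′ to 3′, with every CG dinucleotide in capitals.
Both marks, ZWINT (chr10:56361260-56361509, minus strand): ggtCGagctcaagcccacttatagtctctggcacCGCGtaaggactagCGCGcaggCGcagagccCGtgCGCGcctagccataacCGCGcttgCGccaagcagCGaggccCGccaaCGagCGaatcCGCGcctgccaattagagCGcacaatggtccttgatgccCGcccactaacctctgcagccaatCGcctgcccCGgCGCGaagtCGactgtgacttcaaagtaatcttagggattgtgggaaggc
Both marks, H3Y1 (chr5:17655850-17656099, minus strand): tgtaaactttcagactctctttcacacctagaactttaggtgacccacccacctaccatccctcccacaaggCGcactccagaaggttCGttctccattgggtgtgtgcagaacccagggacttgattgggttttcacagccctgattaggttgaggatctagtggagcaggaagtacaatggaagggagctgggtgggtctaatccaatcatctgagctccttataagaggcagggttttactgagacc
H3K9me2 alone, UQCRFS1 (chr19:29213152-29213401, minus strand): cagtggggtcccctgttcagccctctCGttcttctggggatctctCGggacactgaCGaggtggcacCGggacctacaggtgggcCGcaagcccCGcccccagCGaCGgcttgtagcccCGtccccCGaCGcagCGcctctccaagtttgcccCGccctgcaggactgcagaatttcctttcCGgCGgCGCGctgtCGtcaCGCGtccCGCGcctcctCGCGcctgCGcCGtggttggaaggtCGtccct
H3K9me2 alone, CLVS2 (chr6:122995985-122996234, plus strand): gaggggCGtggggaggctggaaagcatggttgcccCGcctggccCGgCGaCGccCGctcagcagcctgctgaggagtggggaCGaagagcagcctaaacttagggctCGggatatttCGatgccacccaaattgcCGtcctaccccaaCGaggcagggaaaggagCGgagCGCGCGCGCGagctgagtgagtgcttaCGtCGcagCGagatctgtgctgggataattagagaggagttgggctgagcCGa
H3K9me3 alone, RAN (chr12:130871816-130872065, plus strand): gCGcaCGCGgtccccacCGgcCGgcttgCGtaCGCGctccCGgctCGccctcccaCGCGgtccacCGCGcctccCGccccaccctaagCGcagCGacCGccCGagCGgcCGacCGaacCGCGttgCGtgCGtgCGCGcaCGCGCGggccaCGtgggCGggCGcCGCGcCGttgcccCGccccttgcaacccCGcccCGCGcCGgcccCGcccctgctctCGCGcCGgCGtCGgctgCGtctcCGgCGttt
H3K9me3 alone, KLHL1 (chr13:70108453-70108702, minus strand): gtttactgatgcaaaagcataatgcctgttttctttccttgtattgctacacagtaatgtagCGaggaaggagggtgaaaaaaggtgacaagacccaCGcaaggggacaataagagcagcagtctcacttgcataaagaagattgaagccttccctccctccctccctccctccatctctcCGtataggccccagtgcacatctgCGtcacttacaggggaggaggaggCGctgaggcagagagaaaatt

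These windows hold 25 CG in ZWINT and 2 in H3Y1, 27 in UQCRFS1 and 21 in CLVS2, and 51 in RAN and 5 in KLHL1. CLVS2 shows that a CG-rich window can belong to a gene with no count. CG reads the same on both strands and was counted once per site. Over the 22199 listed starts of 15843 protein-coding genes with a class, 96.8% of windows held a CG and the median was 16. The median was 8 over 1012 windows in shared DNA, 4 over 441 in H3K9me2-alone DNA, 12 over 615 in H3K9me3-alone DNA and 17 in DNA with neither mark. Windows of genes at 1 CPM or more held more CG than windows of genes below it in each marked class: medians of 15 and 7 in shared DNA, 13.5 and 4 in H3K9me2-alone DNA, and 18 and 5 in H3K9me3-alone DNA. This split is not given here for DNA with neither mark, so it is not tied to the marks. DNA methylation was not analysed here.

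Protein-coding genes per Mb were fewest on shared DNA, and most genes on H3K9me2 were below 1 CPM. Each gene was placed by the class holding 50% or more of its length, which put 833 protein-coding genes on shared DNA, 383 on H3K9me2-alone, 504 on H3K9me3-alone and 17463 on DNA with neither mark. That is 1.52, 2.53, 4.61 and 7.66 genes per Mb. At a mean of 1 CPM or more over the 4 control libraries stood 98 of the shared genes (11.8%), 17 of the H3K9me2-alone genes (4.44%) and 217 of the H3K9me3-alone genes (43.1%). The background is 61.8% of all 19204 positioned protein-coding genes, and 66.0% of those with neither mark. CPM is not corrected for length, and these are bulk libraries, in which fewer cells expressing a gene and less RNA per cell cannot be told apart.

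**Figure D5:**
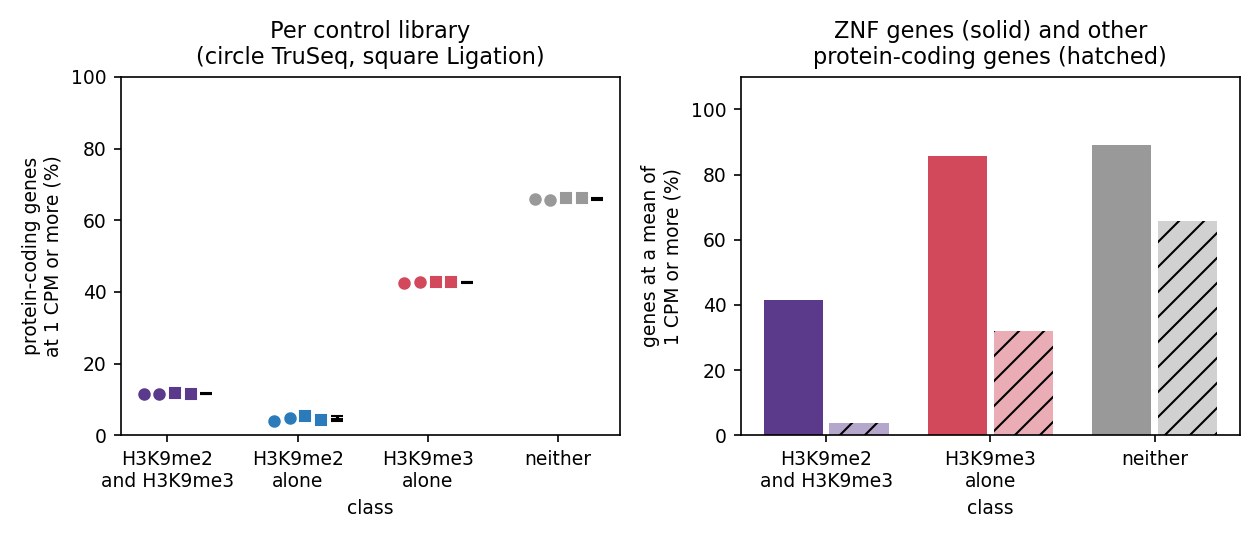
Left, share of protein-coding genes at 1 CPM or more (y axis, %) in each of 4 control libraries by class, with the mean and SD as the black bar. Right, share at a mean of 1 CPM or more for ZNF genes and for all other protein-coding genes. The libraries of a class nearly coincide, and ZNF genes stand above other genes in each class shown.

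Over all protein-coding genes the order of the classes was the same in all 4 control libraries. Shared genes were at 1 CPM or more in 11.6%, 11.5%, 11.8% and 11.6% of cases (mean 11.6 ± 0.098 SD), H3K9me2-alone genes in 3.92%, 4.70%, 5.48% and 4.18% (4.57 ± 0.691) and H3K9me3-alone genes in 42.5%, 42.7%, 42.7% and 42.9% (42.7 ± 0.162). The classes did not overlap in these libraries, although libraries of 1 cell line share their biology. Without zinc finger (ZNF) genes the order of shared and H3K9me2-alone genes was not kept, as given below. Within bins of body length, the shares of H3K9me3-alone and shared genes were 19.8% and 2.89% under 10 kb, 60.8% and 24.1% from 10 to 100 kb, and 33.3% and 6.12% at 100 kb and over. The part of body length in the order of the classes was not tested. Between shared and H3K9me2-alone genes the gap was seen from 10 to 100 kb (24.1% and 3.70%) and not in the shorter (2.89% and 3.20%) or longer bodies (6.12% and 6.50%). No count in any control library was found for 611 shared genes (73.3%), 243 H3K9me2-alone genes (63.4%) and 181 H3K9me3-alone genes (35.9%). Among genes with neither mark 2483 (14.2%) had none.

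Zinc finger genes made up most of the transcribed genes on shared DNA. Of 475 ZNF genes, 176 lay on shared DNA, 104 on H3K9me3-alone DNA, 2 on H3K9me2-alone DNA and 193 on neither, and chromosome 19 held 153 of the 176. On shared DNA 73 of the 176 (41.5%) were at 1 CPM or more, against 25 of 657 other protein-coding genes (3.81%). Other genes on H3K9me2-alone DNA were at 4.20%. On H3K9me3-alone DNA 89 of 104 ZNF genes (85.6%) were, beside 172 of 193 (89.1%) with neither mark, while other genes were at 32.0% and 65.8%. ZNF160 on shared DNA stood at 46.3, 40.9, 58.2 and 57.4 CPM, ZNF121 on H3K9me3-alone DNA at 183, 192, 177 and 183 CPM, and ZNF24 at 170, 175, 172 and 171 CPM. The zinc finger group is a readout the classes did not use, but ZNF genes share sequence, and reads can be split between copies.

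Other clustered families divided in their own ways. Of 383 olfactory receptor genes, 135 lay on shared, 24 on H3K9me2-alone and 8 on H3K9me3-alone DNA, and none on marked DNA was at 1 CPM or more. The clustered protocadherins, adhesion molecules of neurons, fell the other way, with 24 of 53 on H3K9me3-alone and 11 on shared DNA. Keratin-associated proteins of hair were split by locus, with 32 of 93 on shared DNA, such as KRTAP7-1 on chromosome 21, and 33 on H3K9me3-alone DNA, such as KRTAP4-8 on chromosome 17. Of 55 keratins 18 were on H3K9me3-alone DNA, and KRT10 there stood at 15.5, 16.2, 15.6 and 13.5 CPM. Neuronal receptor and adhesion genes gave 35 of 90 to shared, 5 to H3K9me2-alone and none to H3K9me3-alone DNA, with CSMD2 on H3K9me2-alone DNA at 0.830, 1.04, 1.47 and 0.712 CPM. All 39 HOX genes, which are textbook Polycomb targets, lay on DNA with neither mark, as did all 84 histone genes, all 19 UDP glucuronosyltransferases and 84 of 86 ribosomal protein genes. Over all protein-coding genes 4.34% lay on shared, 1.99% on H3K9me2-alone and 2.62% on H3K9me3-alone DNA. With neither mark were 90.9% of them, so the families almost wholly there are near the share of all genes.

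The highest levels within the marks included genes of basic cell functions. By CPM, not corrected for length, the first on shared DNA was ZWINT (chr10:56357227-56361273), a kinetochore protein, at 107, 128, 84.6 and 86.9 CPM, followed by the splicing regulator QKI, ZNF160, KIAA1217 and PUDP, a pseudouridine phosphatase. QKI, KIAA1217 and PUDP have only 66.4%, 53.3% and 67.6% of their bodies on shared DNA, and the first start of PUDP lies outside the marks. On H3K9me2-alone DNA the first was UQCRFS1 (chr19:29205320-29213151), the Rieske subunit of respiratory complex III, at 126, 122, 104 and 106 CPM, followed by PCTP, MOCS1, ZNF175 and EPDR1. Its whole body of 7.83 kb lay in H3K9me2, H3K27me3 and lamin B1 domains of the controls. On H3K9me3-alone DNA RAN (chr12:130872066-130877678), the GTPase of nuclear transport, stood at 848, 894, 759 and 728 CPM, and PRDX6, a peroxiredoxin, at 319, 332, 287 and 283 CPM, with IRS1, the insulin receptor substrate, next after ZNF121 and ZNF24. ZNF24 has 63.8% of its body on H3K9me3-alone DNA, and the listed starts of ZNF24 and PCTP lie outside the marks. The narrowest domains are 115 and 65 kb wide, so a domain does not say that the promoter of such a gene carries the mark.

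Genes on marked DNA mostly rose where they changed after HNRNPK siRNA. Of the 13933 genes tested 71.5% passed edgeR's quasi-likelihood test at an adjusted p under 0.05, 35.5% higher and 36.1% lower, with the library kit in the model. Few genes of the marks passed the filter on low counts: 120 of 1806 on shared, 40 of 655 on H3K9me2-alone and 283 of 778 on H3K9me3-alone DNA. On shared DNA 79 of the 120 (65.8%) changed, 73 higher and 6 lower (median log2 difference of the tested 0.45). On H3K9me2-alone DNA 29 of 40 (72.5%) changed, 27 higher and 2 lower (median 1.11), and on H3K9me3-alone DNA 189 of 283 (66.8%), 126 higher and 63 lower (median 0.18). Over all tested genes the median was -0.0042. The shares called were near or below the background, while the share higher among the called was 92.4%, 93.1% and 66.7%, against 49.6% over all. Within kits the rises and falls were 64 and 1 (TruSeq) and 63 and 8 (Ligation) on shared DNA, 26 and 1 and then 25 and 2 on H3K9me2-alone DNA, and 113 and 52 and then 115 and 65 on H3K9me3-alone DNA.

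The filter on low counts bears on this split. Of the 40 tested H3K9me2-alone genes 12 were under 0.5 CPM in the controls and all 12 were higher. Over all tested genes 302 of 312 under 0.5 CPM were higher too. Such genes pass the filter only through the treated libraries. With a minimum mean of 50 counts, 4 H3K9me2-alone genes rose and 2 fell. Among genes at 1 CPM or more in the controls, 62 rose and 6 fell of 107 on shared DNA (median 0.39), 8 rose and 2 fell of 17 on H3K9me2-alone DNA (median 0.12), and 117 rose and 62 fell of 264 on H3K9me3-alone DNA (median 0.13). Over all 12909 tested genes at that level 4338 rose and 4999 fell (median -0.04). This limit on control level was set after the values were seen.

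ZNF genes made up 54 of the 73 rises on shared DNA. There 54 of 78 tested ZNF genes rose and 1 fell (median 0.58), against 19 rises and 5 falls among 42 other genes (median 0.20). On H3K9me3-alone DNA 62 of 90 ZNF genes rose and 6 fell (median 0.48), while the 193 other genes were near even, with 64 rises and 57 falls (median 0.05). On DNA with neither mark 71 of 176 ZNF genes rose and 39 fell (median 0.10). Whether these shares differ between classes was not tested.

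Single genes show the size of these changes. ZNF136 on shared DNA (chr19:12163096-12189871) went from 3.38, 3.47, 4.06 and 2.90 CPM to 10.9, 13.4, 10.7 and 10.1 CPM (log2 difference 1.72 ± 0.14 SE, edgeR adjusted p = 2.13e-09). The groups did not overlap, as was required of every gene named as a largest rise or fall. TENM3, a teneurin of neuronal wiring, rose by 1.93 ± 0.18 on the log2 scale and the pseudogene ZNF702P by 1.72 ± 0.21. TENM3 has 57.9% of its body on shared DNA, and control H3K27me3 domains covered its whole body. The HNRNPK siRNA list of H3K9me3 covered 39.5% of the TENM3 body, less than the shared part in the controls. The largest falls on shared DNA were those of the pseudogene transcript DUXAP8 (-0.86 ± 0.20) and ZNF559 (-0.71 ± 0.11). DUXAP8 lost its call in the TruSeq libraries alone (-0.48, edgeR adjusted p = 0.137). ZNF559 overlaps the readthrough gene ZNF559-ZNF177, and reads of the pair cannot be told apart.

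On H3K9me2-alone DNA ASTN1 (chr1:176857321-177164712) rose to 3.82, 4.60, 3.12 and 3.63 CPM (log2 difference 1.99 ± 0.24 SE, edgeR adjusted p = 5.98e-07). ANKFN1 rose by 2.25 ± 0.26 and CFAP58, a protein of cilia with 51.6% of its gene body in this class, by 2.05 ± 0.21. All had H3K27me3 over the whole body in the controls. ASTN1 kept lamin B1 over its whole body in the HNRNPK siRNA list, and ANKFN1 over 64.5% of it, while CFAP58 went from 38.7% cover to none. MOCS1 (chr6:39904170-39934462), an enzyme gene of molybdenum cofactor synthesis, was the only fall that met the naming rule, from 20.3, 20.0, 20.3 and 19.8 CPM to 14.8, 13.7, 11.7 and 10.7 CPM (-0.66 ± 0.09). It overlaps DAAM2, and its body had no lamin B1 domain in either list.

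On H3K9me3-alone DNA ZNF192P1 (chr6:28161761-28169595), a pseudogene, went from 1.90, 2.26, 2.80 and 2.57 CPM to 15.0, 16.6, 20.1 and 19.4 CPM (log2 difference 2.89 ± 0.12 SE, edgeR adjusted p = 2.55e-13). KLRD1, the natural killer cell receptor chain CD94, rose by 2.81 ± 0.19, in libraries where the blood marker PTPRC was at 0.149 CPM or less. The readthrough gene ZNF8-ERVK3-1 rose by 2.80 ± 0.17 and shares sequence with ZNF8. LONRF2 (chr2:100271875-100322501), a RING finger gene, fell from 20.8, 27.5, 25.6 and 25.7 CPM to 4.09, 5.27, 2.87 and 4.37 CPM (-2.58 ± 0.14). FN3K, a kinase that acts on glycated proteins, fell by 2.18 ± 0.22 and LINC01145 by 2.13 ± 0.18. LINC01145 lies in the duplicated run of chromosome 1 of NBPF15, so its counts and cover are uncertain. The bodies of all 6 kept their H3K9me3 cover in the knockdown list, and none had a lamin B1 domain in either list.

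Lamin B1 cover after HNRNPK siRNA was lower over shared zinc finger genes than over other shared genes. Control lamin B1 domains covered 97.7% of the body length of the 176 shared ZNF genes and 97.8% of that of the 657 other shared genes. In the HNRNPK siRNA list these were 70.8% and 95.1%, while H3K9me3 covered 100% and 91.4%. On chromosome 19 the lamin B1 list kept 80.2% of its shared length (2.69 Mb lost), against 98.3% on all other chromosomes (9.01 Mb lost). The bodies of ZNF160, ZNF702P, ZNF136 and ZNF559 lay wholly in lamin B1 domains before and in none after, although the first 3 rose and ZNF559 fell. ZNF160 rose by only 0.16 ± 0.06 on the log2 scale (edgeR adjusted p = 0.0373) with overlapping groups, and it did not pass in 7 alternative fits, such as the Ligation libraries alone (0.03, edgeR adjusted p = 0.681). With 1 list per condition these differences have no replicate check, and the HNRNPK siRNA list of lamin B1 is shorter as a whole (684.5 against 922.9 Mb).

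The enzymes and readers of both marks were counted at 1 CPM or more in the controls, with 1 exception. Of 22 listed genes of H3K9 methylation, 21 were at 1 CPM or more and were tested after HNRNPK siRNA, where 8 rose, 7 fell and 6 did not pass edgeR's test (median log2 difference 0.04). That share changed is near the 71.5% over all tested genes. Among the writers, SETDB1 stood at 82.1, 88.3, 90.4 and 99.6 CPM, EHMT1 at 76.4, 69.1, 85.3 and 76.4 CPM, and SUV39H1 at 29.2, 28.3, 18.4 and 18.2 CPM, lower in the Ligation kit. EHMT2 was counted at 0.0593, 0.209, 0.133 and 0 CPM, and the cause of this low count was not tested. EHMT2-AS1 overlaps its body and the strand setting of the counts is not known, so the count does not show a lack of transcription. EHMT1 fell by 0.41 ± 0.06 on the log2 scale after HNRNPK siRNA and the demethylase gene KDM4B by 2.02 ± 0.13, from 68.1, 39.6, 90.5 and 83.3 CPM to 14.5, 13.8, 20.8 and 19.4 CPM. KDM4A, its relative, rose by 0.88 ± 0.05 (edgeR adjusted p = 1.12e-11). ATF7IP, the partner of SETDB1, and MORC2, an ATPase that acts with the HUSH complex, themselves lay on H3K9me3-alone DNA. MORC2 had only 54.5% of its body there. ATF7IP went from 92.8, 101, 89.4 and 104 CPM to 124, 126, 143 and 146 CPM, and MORC2 rose by 0.17 ± 0.05.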

How the data were processed

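Domain lists were deposited by the authors in hg38 coordinates (GRCh38) with 1 score per domain. The submitters' processing notes name bcl2fastq 2.20, fastp 0.23.2, Bowtie2 2.5.1 and deepTools 3.1.3. The domain caller, the use of input and the unit of the score are not given in the sources used here. Most edges lie on 5 kb steps, and all domains were used. Gene counts were deposited as raw counts, with STAR 2.7.1a and featureCounts (Subread 2.0.6) named in the submitters' processing notes, and the strand setting is not given in the sources used here.

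Bases were classed by overlap in Python 3.11.15, and of 28278 gene names 27606 (97.6%) were given a position from RefSeq GRCh38.p14. A domain counted as nested at 90% cover, and a gene as in a class at 50%. Counts were TMM-scaled and tested in edgeR 4.0.16 (quasi-likelihood, filterByExpr, library kit as covariate, Benjamini-Hochberg over all tested genes), after a check on simulated data. DESeq2 1.42.0 was an alternative. Replicate numbers are shared between control and HNRNPK siRNA libraries. Deviations of same-numbered libraries from their group mean correlated at 0.100, 0.425, 0.337 and 0.265. Same-numbered libraries also share the kit, and from the mean of group and kit the correlations were 0.058 or less. The reported model held the kit and did not pair libraries by number. Pairing by number, as a replicate block, was only an alternative fit. Replicate libraries differed by more than counting noise (chi-square per gene 2.23 to 8.09).

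Named genes were, in each class, the 5 with the highest control CPM, and the 3 largest rises and falls with an adjusted p under 0.05, log2 CPM of at least 1 and no overlap between groups, plus examples of each list; some genes that met these rules are not reported here. Members and lists were chosen with earlier results of these data known. Other settings tried were domain width and score limits, merging within 50 kb, bins of 50 kb, edge and nesting limits, gene placement, detection limits, autosomes, each kit, a second pair of control libraries (Scramble), tools, filters and leaving out each library. Exon lengths were not used here, so levels are not compared per length between genes.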

Additional observations from a re-analysis of the deposited data

Results flagged for a closer look

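Of 64 groups of 4 libraries looked at for the named genes, 2 held a library far from the other 3, and about 1 in 20 such groups is flagged by chance. EPDR1, on H3K9me2-alone DNA, was lowest in the third HNRNPK siRNA library at 13.0 CPM, with the others between 14.5 and 14.8 CPM. KLRD1, on H3K9me3-alone DNA, was lowest in the first control library at 0.711 CPM, with the others between 1.27 and 1.37 CPM. Its rise after HNRNPK siRNA is far larger than this gap.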

How the results depend on the processing

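No fold change or count split reversed under the alternatives tried, but the order of the nested shares did. Limiting both lists to the upper part of their scores raised the share of H3K9me2 length with H3K9me3 from 78.4% to 87.3%, and the lamin B1 cover of shared DNA to 99.2%, of H3K9me2-alone DNA to 96.1% and of H3K9me3-alone DNA from 20.2% to 39.3%, while H3K27me3 on H3K9me3-alone DNA went to 11.5%. With domains of at least 100 kb, H3K9me3 length with H3K9me2 was 86.2%, nested H3K9me3 domains 47.3% and lamin B1 on H3K9me3-alone DNA 23.7%. Nesting at 50% gave 57.4% of all H3K9me2 and 37.9% of all H3K9me3 domains, and at 100% 11.5% and 25.4%. Which mark had the larger nested share of its whole list thus depends on the limit. Edges matched at 6.66% within 10 kb and 40.2% within 100 kb.

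Detected shares on shared, H3K9me2-alone and H3K9me3-alone DNA were 12.8%, 7.31% and 45.4% at 0.5 CPM, 7.68%, 2.35% and 34.5% at 5 CPM, 13.4%, 8.62% and 49.8% for genes with any overlap, 10.7%, 3.19% and 42.2% for genes with 90% of the body in the class, and 5.92%, 2.60% and 33.9% over all named genes. By midpoint they were 5.75% (H3K9me2-alone) and 44.0% (H3K9me3-alone). On shared and H3K9me3-alone DNA they were 12.5% and 45.9% in the Scramble libraries, 12.5% and 43.5% on autosomes, 11.6% and 42.9% in TruSeq and 11.6% and 43.3% in Ligation libraries. Leaving out 1 control library gave 11.6% to 11.8% on shared, 3.92% to 4.96% on H3K9me2-alone and 42.9% to 43.1% on H3K9me3-alone DNA.

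Changed genes on H3K9me2-alone DNA numbered 62 with no filter on low counts, 6 at a mean of 50 counts (4 higher and 2 lower, against 27 and 2), 49 with any overlap and 10 at 1 CPM or more in the controls (chosen after seeing the data), against 29. On H3K9me3-alone DNA any overlap gave 303, against 189, and the share higher fell from 66.7% to 54.1%. With the replicate block in place of kit, 76, 28 and 188 genes changed on shared, H3K9me2-alone and H3K9me3-alone DNA, against 79, 29 and 189. Among the single genes named, UQCRFS1 lost its call in 9 fits and ZNF160 in 7. A minimum of 10 kb changed nothing, since every domain is wider. Depth limits the genes near 0, where a share at 1 CPM cannot tell silence from low transcription.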
